A study of Mus musculus with 13 samples.

Results

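Transcripts of etoposide-induced senescent mouse embryonic fibroblasts (MEFs) that had received 100 μg/mL of Fucoidan-FV were compared with those of untreated senescent MEFs. The comparison was chosen by the sample labels and takes 6 of the 13 libraries of the series: 3 with the fucoidan and 3 without, of mice 4, 5 and 6 in both groups. All 6 were WT MEFs, fibroblasts grown from mouse embryos, which had been given 2 μM etoposide for 24 h and then kept for 5 days in normal medium; the treated ones then had Fucoidan-FV for 12 h before RNA was extracted. The remaining libraries were 4 of control MEFs, which had no etoposide, and 3 of senescent MEFs given 300 μg/mL, which were used here to estimate the spread and for 1 test between the doses. The labels used here give neither age nor sex of the embryos and do not say whether cultures of 1 mouse were split before or after senescence was induced, so p-values measure the spread between these samples. RNA of whole cultures was sequenced, so fewer cells of a kind and less RNA per cell cannot be told apart.

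Etoposide traps topoisomerase II on broken DNA, and cells that cannot mend the damage stop dividing for good. Such senescent cells keep inhibitors of cyclin-dependent kinases switched on and release the senescence-associated secretory phenotype (SASP), a mixture of cytokines, proteases and growth factors. In fibroblasts the same cells also make and remodel collagen matrix and carry contractile actin fibres, programmes that are driven in part by the serum response factor (SRF) and by growth factor signals through the kinase ERK. Fucoidan-FV comes from the seaweed Fucus vesiculosus and consists of sulfated, fucose-rich sugar chains, which share with heparin a capacity to bind growth factors outside the cell. The question put by the design was what the lower dose changed in cells that were already senescent.

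Total expected counts were 25605552 to 31278741 in untreated and 22782505 to 29073859 in treated libraries. Levels are given as CPM, the counts scaled to a common library size with TMM factors, always for mice 4, 5 and 6 in that order. Fibroblast genes dominated both groups: the 13 fibroblast markers summed to 36030 to 54240 CPM without and 41324 to 48954 CPM with the fucoidan, whereas 14 macrophage markers summed to 3.45 to 18.6 and 7.83 to 17.1 CPM and 7 erythroid markers stayed under 1 CPM in every library. Of 10 endothelial markers, 1 had no count and the sum was 9.97 to 12.1 against 12.8 to 26.7 CPM. The 10 neural markers summed to 660 to 1095 CPM without and 233 to 247 CPM with the fucoidan, most of it the intermediate filament gene Nes. Sums of 12 skeletal muscle markers (150 to 362 against 94.7 to 149 CPM), 8 chondrocyte markers (231 to 360 against 128 to 235 CPM) and 10 epithelial markers (7.57 to 17.7 against 2.15 to 3.9 CPM) were also lower with the fucoidan, with a small overlap for the chondrocyte list. The differentially expressed genes (DEGs, defined below) in these lists were Krt19 and Nes among the lower and Tek, Map2, Col3a1, Dcn and Lum among the higher genes. The part of other cell types in any result was not tested.

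One technical property ran through these libraries. Genes whose exon sequence lies in a single transcript among their own listed transcripts were counted to different degrees. Matches to other genes are not part of this share. Where such sequence exceeded 95% of a gene, the median log2 deviation from the mean of the 12 samples was 0.19, −0.75 and 0.37 in untreated and 0.78, 0.88 and −0.20 in treated libraries of mice 4, 5 and 6. For genes with under 50% it stayed between −0.16 and 0.17. The median log2 fold change between the groups was 0.41 for the first class and −0.12 for the second. A fit with offsets per gene and library, made from the share of single-transcript sequence, the length and the GC content of each gene, brought these medians to −0.12 and −0.12. Its values are given below where they end or add the call of a gene, or move the fold change of a DEG more than 1.5-fold. How far this property contributed to any 1 result was not tested.

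**Figure D1:**
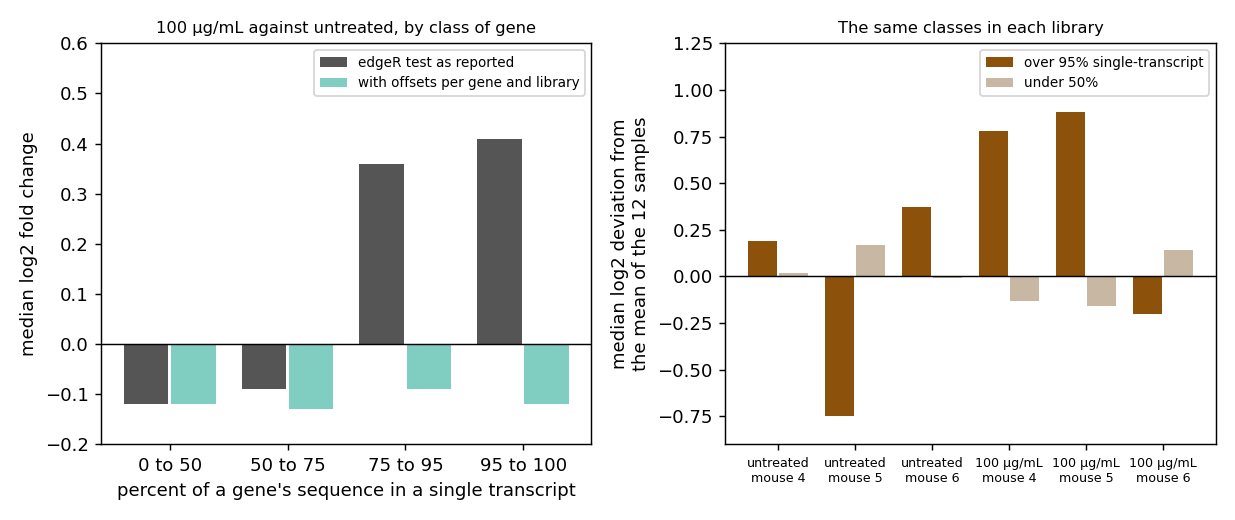
Left, median log2 fold change of 100 μg/mL against untreated senescent MEFs for genes grouped by the percent of their sequence that lies in a single transcript, in the test as reported and with offsets per gene and library; right, median log2 deviation of genes over 95% and under 50% single-transcript sequence in each of the 6 libraries. The fold change rises with the share in the reported test, from −0.12 to 0.41, and lies between −0.13 and −0.09 with offsets.

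Of 15034 genes tested, 405 (2.69%) were DEGs, with an adjusted p under 0.05 in edgeR's quasi-likelihood test and a log2 fold change over 1 in size. Of these, 165 rose (1.10% of the genes tested) and 240 fell (1.60%). The increases were the larger ones: the median log2 fold change was 2.14 among genes that rose and −1.34 among those that fell, and 94 rose but 50 fell by more than 2 on the log2 scale. 389 DEGs were protein-coding, 13 were lncRNAs and 3 were pseudogenes. Every DEG moved in the same direction in 3 of 3 mice and had groups that did not overlap, which held for 26.2% of all genes tested. Over all genes the median log2 fold change was −0.02. It was −0.12 with the offsets, 0.34 with log2 TPM in limma, 0.13 without untreated mouse 6 and 0.16 without untreated mouse 5. List medians and estimates from those fits are to be read beside these values. Scaling by RLE factors in place of TMM moved the median over all genes to 0.07 and the split of the calls to 174 higher and 147 lower. Leaving out 1 library lowered the count: it was 136 without treated mouse 4, 157 without treated mouse 5, 189 without untreated mouse 6, 209 without untreated mouse 5, 221 without treated mouse 6 and 365 without untreated mouse 4. Calls that held in all 6 such fits, with the mouse as a replicate block and with the offsets numbered 87, of which 33 rose and 54 fell. Counts in each list below are to be read beside the shares over all genes: 2.69% called, 1.10% higher and 1.60% lower. In what follows ± gives the SE of a log2 fold change. Each account ends with the calls lost without 1 library, with the replicate block or with the offsets, and covers no other fit. The adjusted p of those fits is in brackets, and the library left out is named by group and mouse (untreated 5 is the untreated library of mouse 5).

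**Figure D2:**
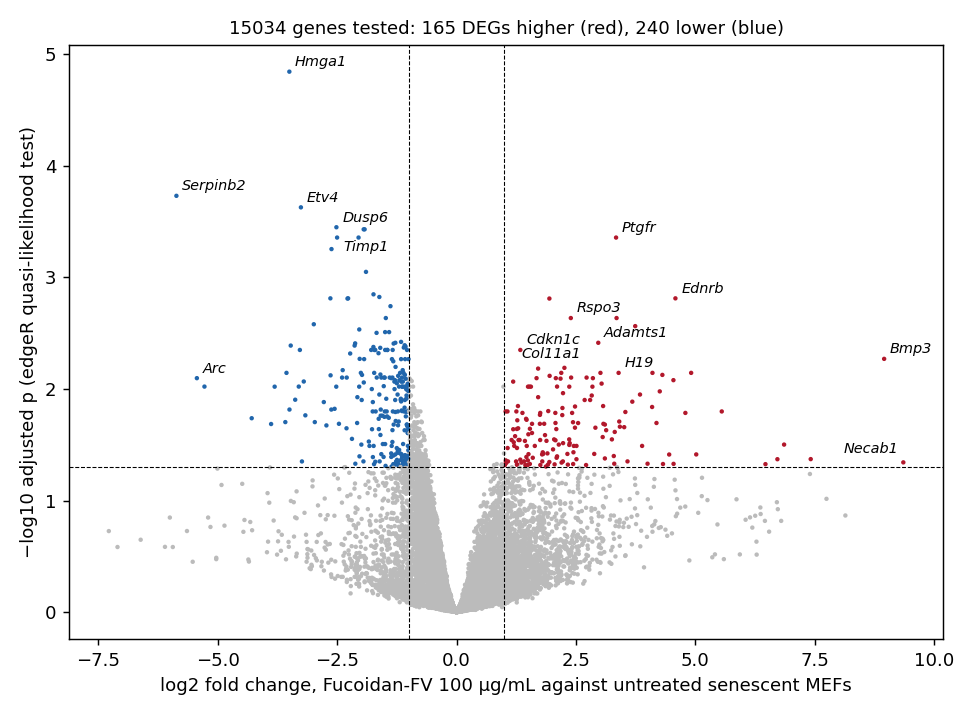
Each point is 1 of the 15034 genes tested, with its log2 fold change at 100 μg/mL against untreated senescent MEFs on the x axis and −log10 of its adjusted p on the y axis; dashed lines mark the thresholds of 0.05 and of 1 on the log2 scale. Hmga1 has the smallest adjusted p (1.44e-05) and lies among the 240 genes that fell, and Bmp3 and Necab1 lie farthest to the right among the 165 that rose.

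The strongest single call was Hmga1 (ENSMUSG00000046711, chr17:27775449-27782648), which encodes an architectural chromatin protein that accumulates in the heterochromatin foci of senescent cells. Its level was 288, 332 and 344 CPM in untreated MEFs and 27.8, 33.5 and 23.9 CPM at 100 μg/mL (log2 fold change −3.50 ± 0.23, adjusted p = 1.44e-05), 11.3-fold lower with no overlap. Reads of Hmga1 can be shared with its near-identical copy Hmga1b, an entry chosen here for that reason, which was at 39.7, 1.81 and 50.4 CPM without and 6.35, 0.227 and 2.04 CPM with the fucoidan (log2 fold change −3.40 ± 1.45, adjusted p = 0.21, and adjusted p = 0.00504 with the replicate block). Serpinb2 (ENSMUSG00000062345, chr1:107428593-107463208), which encodes plasminogen activator inhibitor 2, had the largest decrease, from 11.1, 8.1 and 11.8 CPM to 0.125, 0.189 and 0.208 CPM (log2 fold change −5.87 ± 0.51, adjusted p = 0.000187). Arc, an activity-regulated immediate early gene, went from 5.05, 6.9 and 10.2 to 0.0939, 0.416 and 0 CPM (−5.44 ± 0.93, adjusted p = 0.00802). Egr2, a zinc finger factor of the same early response, was at 25.1, 32.8 and 51.4 CPM without and 1.94, 2.35 and 3.11 CPM with the fucoidan (−3.88 ± 0.82, adjusted p = 0.0206). In each of the 4 genes the highest treated library lay well below the lowest untreated one. Other large decreases were those of the Wnt feedback gene Axin2 (−3.50 ± 0.68, adjusted p = 0.0153), the receptor gene Vmn2r79 (−4.29 ± 0.88, adjusted p = 0.0183) and the lncRNAs Gm50394 (−5.28 ± 0.94, adjusted p = 0.00954) and Gm35940 (−3.59 ± 0.75, adjusted p = 0.0198). On the opposite strand another gene overlaps exons of Gm50394 (44.9%, Dusp5). Leaving out any 1 of the 6 libraries kept the calls of Hmga1 and Serpinb2, and every such fit lost Vmn2r79 (0.0608 to 0.0963). By single libraries, the loss concerned Arc without treated 4 (0.0526), Egr2 without untreated 5, 6 and treated 4, 5, 6 (up to 0.107), Axin2 without untreated 5 and treated 4, 5 (up to 0.0772), Gm50394 without treated 4 (0.0583) and Gm35940 without untreated 4, 5 and treated 4, 5, 6 (up to 0.101). Log2 fold changes with the offsets were Vmn2r79 −4.88 (adjusted p = 0.00587, 6.79% single-transcript) and Gm50394 −6.02 (adjusted p = 0.0172, 100% single-transcript).

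At the other end, several genes were all but silent before treatment. Bmp3, a member of the bone morphogenetic protein family that opposes osteogenic signals, had no count in untreated MEFs and 1.47, 1.17 and 3.81 CPM at 100 μg/mL, at least 60.3-fold higher against a floor of 3 counts over the group (adjusted p = 0.00539). Necab1, which encodes a neuronal calcium-binding protein, likewise went from 0 to 1.72, 1.48 and 5.33 CPM, at least 79.5-fold higher (adjusted p = 0.0455). Treated mouse 6 had the highest value of both. At most 3 counts stood in the untreated group for the flavin monooxygenase gene Fmo1 and for Ms4a4d. The ratio of treated to untreated levels was 156 times (counting interval 27.6 to 6191) for Fmo1 and 35.3 times (counting interval 11.8 to 174) for Ms4a4d. These intervals cover counting error alone. Better measured was Serpinb1a, an inhibitor of neutrophil proteases, at 2.49, 1.68 and 1.97 CPM in untreated MEFs and 32.5, 24.5 and 129 CPM at 100 μg/mL (log2 fold change 4.91 ± 0.81, adjusted p = 0.00719). The sodium channel gene Scn7a (5.55 ± 1.11, adjusted p = 0.0159), the VIP receptor gene Vipr2 (4.79 ± 0.91, adjusted p = 0.0164), the endothelin receptor gene Ednrb and the cortactin-binding gene Cttnbp2 (4.54 ± 1.16, adjusted p = 0.0469) were also among the 10 largest increases. Every fit without 1 library called Bmp3 and Serpinb1a, and every such fit lost Necab1 (0.0923 to 0.135), Fmo1 (0.0604 to 0.0973) and Ms4a4d (0.064 to 0.142). Calls that hung on single libraries were Scn7a without untreated 5 and treated 5 (up to 0.0659), Vipr2 without treated 4, 5 (up to 0.0801) and Cttnbp2 without untreated 5, 6 and treated 4, 5, 6 (up to 0.161). Blocking on the mouse, as a replicate block, left out Necab1 (0.058), Fmo1 (0.0534) and Ms4a4d (0.0683). The offsets gave Ms4a4d 4.34 (adjusted p = 0.0163, 100% single-transcript) and Scn7a 4.51 (adjusted p = 0.0201, 100% single-transcript).

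Abundant transcripts were among the DEGs in both directions. Csf1, the growth factor of macrophages, fell from 1696, 2103 and 1577 to 625, 552 and 576 CPM (−1.62 ± 0.20, adjusted p = 0.0015). Itga5, the fibronectin-binding integrin subunit, fell from 1429, 1765 and 2164 to 417, 470 and 405 CPM (−2.05 ± 0.21, adjusted p = 0.000442). All treated values lay below all untreated values of these genes. The abundant genes that rose were led by Col3a1, a fibrillar collagen, at 861, 838 and 919 CPM in untreated MEFs and 1994, 2040 and 2777 CPM at 100 μg/mL (log2 fold change 1.38 ± 0.28, adjusted p = 0.0164), and by H19, an imprinted lncRNA, at 179, 116 and 122 CPM without and 1087, 548 and 2747 CPM with the fucoidan (log2 fold change 3.39 ± 0.56, adjusted p = 0.00719). Itga11, a collagen-binding integrin subunit, rose from 435, 356 and 229 to 870, 772 and 1360 CPM (1.56 ± 0.28, adjusted p = 0.00956), Il6st, the shared receptor subunit gp130 of the interleukin 6 family, from 252, 364 and 127 to 598, 496 and 1219 CPM (1.64 ± 0.38, adjusted p = 0.0324), and Medag, a gene linked to adipocyte differentiation, from 116, 150 and 80.2 to 271, 261 and 676 CPM (1.81 ± 0.43, adjusted p = 0.037). For Il6st, Medag and H19 the value of treated mouse 6 was the highest by far. Kept in each fit without 1 library were Csf1, Itga5, H19 and Itga11, and every such fit lost Medag (0.0506 to 0.114). Missing the threshold were Col3a1 without treated 6 (0.0612) and Il6st without treated 4, 6 (up to 0.106). With the replicate block the threshold was missed by Il6st (0.0717) and Medag (0.0544). Under the offsets the fit gave Col3a1 0.98 (adjusted p = 0.0612, 74.9% single-transcript).

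**Figure D3:**
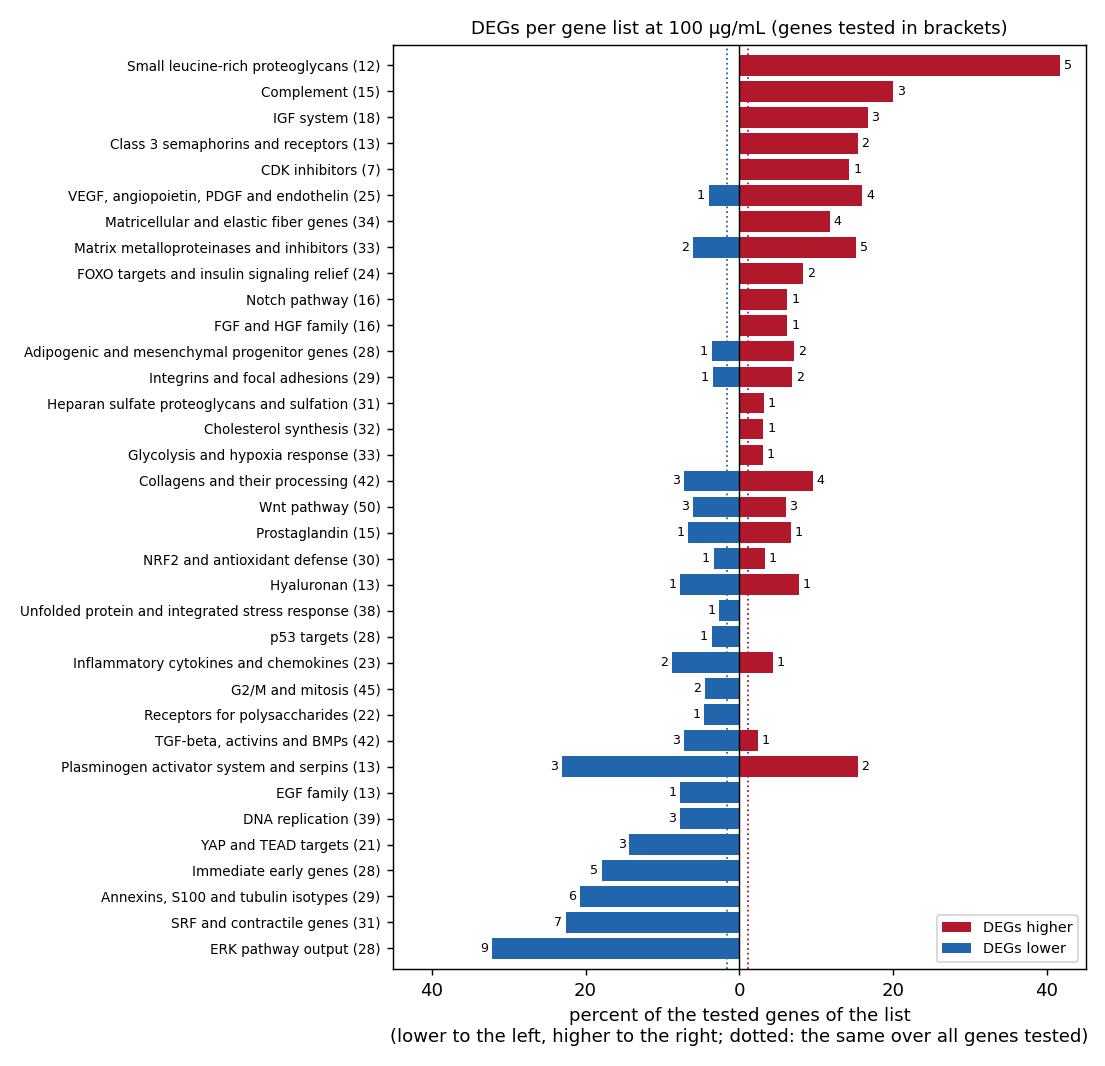
Percent of the tested genes of each list that were DEGs at 100 μg/mL, higher to the right and lower to the left, with the number of DEGs at each bar and the number of genes tested in brackets; lists without a DEG and the genes the study names are left out, as are the marker lists and the lists of the closing section, and dotted lines mark the percentages over all genes tested. Of the lists drawn, ERK pathway output shows the largest share of genes that fell (9 of 28), and the small leucine-rich proteoglycans the largest share that rose (5 of 12).

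Several genes whose transcription follows ERK, the growth factor kinase, fell. Of 28 tested, 9 fell and 0 rose, against 1.60% and 1.10% of all genes, and their median log2 fold change was −0.98 (−1.0, −0.84 and −1.27 in mice 4, 5 and 6). Some of them encode brakes on the pathway itself. Dusp6, a phosphatase that inactivates ERK, fell from 54.7, 64.1 and 62.2 CPM to 11.4, 8.33 and 11.9 CPM (log2 fold change −2.52 ± 0.24, adjusted p = 0.000357). Etv4, an ETS-family transcription factor downstream of ERK, was at 33.3, 38.8 and 43.4 CPM in untreated MEFs and 4.7, 4.96 and 2.39 CPM at 100 μg/mL (log2 fold change −3.26 ± 0.30, adjusted p = 0.000237). Plaur, the receptor of urokinase, was at 144, 137 and 152 CPM without and 43.9, 39.4 and 29.3 CPM with the fucoidan (log2 fold change −1.94 ± 0.20, adjusted p = 0.000373). Each of these 3 genes was lower in every treated library than in any untreated one. The phosphatase genes Dusp1 (−1.32 ± 0.19, adjusted p = 0.00393) and Dusp5 (−3.17 ± 0.64, adjusted p = 0.0173) fell too, as did Fosl1 (−3.20 ± 0.56, adjusted p = 0.00859), Myc (−1.22 ± 0.20, adjusted p = 0.00765), Phlda1 (−2.08 ± 0.39, adjusted p = 0.0119) and the EGF receptor ligand gene Hbegf (−2.08 ± 0.44, adjusted p = 0.0202). By role, 3 of 6 phosphatase genes, 3 of 7 transcription factor genes and 3 of 9 others fell, but none of the 6 Sprouty and Spred genes did (median 0.30). Dusp5 and Phlda1 stand here to complete the count and were picked after their values were seen. On the opposite strand another gene overlaps exons of Dusp6 (20.2%, Gm56965), Dusp5 (22.4%, Gm50394), Fosl1 (57.2%, Ccdc85b) and Phlda1 (33%, Gm28592). In all 6 fits without 1 library Dusp6, Etv4, Plaur, Dusp1 and Fosl1 stayed DEGs. Single libraries decided Dusp5 without untreated 6 and treated 4, 5, 6 (up to 0.107), Myc without untreated 6 (log2 fold change −0.98), Phlda1 without untreated 4, 6 (up to 0.0971) and Hbegf without untreated 4, 5, 6 and treated 4 (up to 0.14). A fit with the replicate block did not call Dusp5 (0.0507).

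Immediate early genes, which growth factors switch on within minutes, overlapped with this list and gave 5 of 28 lower and 0 higher (median −0.33). Maff, a small Maf factor, fell from 93, 104 and 96.8 to 35, 30.8 and 22.2 CPM (−1.74 ± 0.21, adjusted p = 0.00142), beside Fosl1, Arc, Egr2 and Myc. The list was not uniform: its within-mouse medians were −0.24, 0.38 and −1.42, and 11 of its genes had a log2 fold change above 0. The list median was 0.07 without untreated mouse 6 and −0.69 with the offsets, beside 0.13 and −0.12 over all genes. The classic member Egr1 was at 86.2, 107 and 84.4 CPM in untreated MEFs and 6.29, 5.3 and 53.3 CPM at 100 μg/mL and missed the threshold (log2 fold change −2.09 ± 0.89, adjusted p = 0.211), with treated mouse 6 far above the other treated libraries. Fos was low throughout, at 1.73, 0.905 and 4.38 CPM without and 1.47, 1.36 and 4.91 CPM with the fucoidan (adjusted p = 0.949). Egr1 and Fos are shown as the members for which the list is best known, chosen after their values were seen. No single library decided the call of Maff.

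The starts of some of these genes carry recognition motifs of the factors named above, and 3 stretches are shown because they hold a motif of AP-1, the Fos and Jun dimer, or a CArG box, the binding motif of SRF. Sequences are from RefSeq (250 bases before each gene start) and were placed on GRCm39 by exact match; each runs 5′ to 3′ on the plus strand, lies before 1 of the RefSeq starts of its gene and has the motif in capitals. In Serpinb2 and Egr2 that start is not the first one: both stretches lie inside the gene span of the GENCODE annotation, which begins farther upstream, and in Dusp5 that span begins within the stretch.
Serpinb2, chr1:107439014-107439110: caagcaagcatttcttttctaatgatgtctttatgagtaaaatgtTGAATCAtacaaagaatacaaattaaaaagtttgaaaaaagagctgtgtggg
Egr2, chr10:67373279-67373378: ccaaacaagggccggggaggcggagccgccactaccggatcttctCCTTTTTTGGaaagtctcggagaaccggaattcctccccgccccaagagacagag
Dusp5, chr19:53517459-53517558: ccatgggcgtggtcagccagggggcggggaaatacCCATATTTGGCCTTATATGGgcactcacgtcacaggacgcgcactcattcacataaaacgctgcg
The motif begins 94 bases before that start in Serpinb2 and 72 in Egr2, and Dusp5 has 2 adjacent CArG boxes. Over all genes the AP-1 motif, searched as TGANTCA on both strands, was found before 627 of 10859 tested genes with a RefSeq sequence (5.77%), before 15 of 178 that fell (8.43%) and before 11 of 109 that rose (10.1%). A CArG box was found before 159 (1.46%), 6 (3.37%) and 1 (0.917%) of the same genes. The 6 were Arpc4, Dusp5, Egr2, Eml1, Gsto1 and Lef1, named for their motif. These matches describe the letters and were not set against binding data.

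Contractile and cytoskeletal genes, which SRF and its cofactors drive, held several decreases too. Of 31 tested, 7 fell and 0 rose; the median was −0.64 on the log2 scale (−0.38, −0.55 and −1.01 within mice 4, 5 and 6). Without untreated mouse 6 it was −0.31, beside 0.13 over all genes, and 0 of the listed genes were called. The fit of just the 2 groups and log2 TPM in limma also called 0 of them. Tpm1, a tropomyosin of actin fibres, was at 4492, 6206 and 6253 CPM in untreated MEFs and 2284, 2750 and 2938 CPM at 100 μg/mL (log2 fold change −1.09 ± 0.21, adjusted p = 0.0147). Csrp1, a LIM protein of the actin cytoskeleton, was at 1435, 1946 and 2477 CPM without and 751, 829 and 838 CPM with the fucoidan (log2 fold change −1.28 ± 0.20, adjusted p = 0.00636). Actg2, the smooth muscle γ-actin, was at 1209, 2242 and 3118 CPM without and 645, 852 and 822 CPM with treatment (log2 fold change −1.5 ± 0.30, adjusted p = 0.0159). None of these groups overlapped, yet their untreated values spread more than the treated ones, with untreated mouse 6 highest in Csrp1 and Actg2. Tpm2 fell as well (−1.17 ± 0.22, adjusted p = 0.0123), and so did the transgelin gene Tagln (1657, 2037 and 3423 to 1116, 1301 and 777 CPM, −1.16 ± 0.28, adjusted p = 0.0384); Cnn1 (−1.21 ± 0.25, adjusted p = 0.0196) and Csrp2 (−1.37 ± 0.33, adjusted p = 0.0407), chosen after their values were seen, complete the count. Of the genes of the YAP and TEAD pathway, which reads mechanical tension, 3 of 21 fell and 0 rose (median −0.22). Ankrd1, a classic target, fell from 381, 742 and 753 CPM to 107, 144 and 138 CPM (log2 fold change −2.27 ± 0.28, adjusted p = 0.00155), the receptor tyrosine kinase gene Axl from 945, 1044 and 619 to 410, 407 and 440 CPM (−1.05 ± 0.19, adjusted p = 0.010) and the kinase gene Nuak2 from 43.9, 54.1 and 60.7 to 28.5, 27.5 and 19.5 CPM (−1.07 ± 0.27, adjusted p = 0.0446). Overlap with an opposite-strand gene touches exons of Tagln (60.7%, Gm48529), Cnn1 (35.1%, Elof1) and Ankrd1 (24.3%, Gm56671). Leaving out any 1 of the 6 libraries kept the call of Ankrd1, and every such fit lost Tagln (0.0653 to 0.30) and Nuak2 (0.0992 to 0.228). By single libraries, the loss concerned Tpm1 without untreated 5, 6 and treated 4, 5 (up to 0.0823), Csrp1 without untreated 6 (log2 fold change −0.92), Actg2 without untreated 5, 6 and treated 4, 5, 6 (up to 0.0846), Tpm2 without untreated 5, 6 and treated 4 (up to 0.064), Cnn1 without untreated 5, 6 and treated 4, 6 (up to 0.174), Csrp2 without untreated 5, 6 and treated 4, 5, 6 (up to 0.181) and Axl without untreated 4, 5 and treated 4, 5 (up to 0.0632). The replicate block ended the calls of Tagln (0.0585) and Nuak2 (0.0736). Log2 fold changes with the offsets were Cnn1 −0.99 (adjusted p = 0.0107, 58.4% single-transcript) and Nuak2 −0.96 (adjusted p = 0.0271, 20.7% single-transcript).

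Calcium-binding and cytoskeletal gene families also held decreases. Of 29 annexin, S100 and tubulin genes 6 fell, 0 rose and 25 had a log2 fold change below 0 (median −0.53). Anxa1, an annexin with anti-inflammatory actions, was at 2632, 3322 and 3341 CPM in untreated MEFs and 1283, 1151 and 1277 CPM at 100 μg/mL (log2 fold change −1.32 ± 0.21, adjusted p = 0.00566). S100a6 was at 891, 1030 and 1851 CPM without and 403, 369 and 320 CPM with the fucoidan (log2 fold change −1.79 ± 0.27, adjusted p = 0.00448), and the tubulin gene Tuba4a fell from 80.2, 85.5 and 127 to 30, 30.6 and 36.1 CPM (−1.60 ± 0.24, adjusted p = 0.00429). Anxa3 (−1.34 ± 0.23, adjusted p = 0.00792), Anxa2 (1638, 1812 and 2333 to 893, 842 and 1074 CPM, −1.04 ± 0.19, adjusted p = 0.0102) and Tuba1c (−1.27 ± 0.26, adjusted p = 0.0194), the last outside the naming rule, were the others. The within-mouse medians of the list were −0.27, −0.08 and −1.51, with the lowest value in mouse 6, and the 6 DEGs were lower in all 3 mice. Without untreated mouse 6 the list median was −0.20, beside 0.13 over all genes. Nes, the intermediate filament nestin, was 5.66-fold lower, at 607, 829 and 1033 CPM in untreated MEFs and 137, 139 and 161 CPM at 100 μg/mL (log2 fold change −2.50 ± 0.26, adjusted p = 0.000442). Integrins were split: of 29 integrin and focal adhesion genes 1 fell (Itga5) and 2 rose, the collagen-binding subunits Itga11 and Itga1 (32.4, 42.1 and 18.7 to 77.8, 91.1 and 99.7 CPM, 1.53 ± 0.27, adjusted p = 0.00954). The keratin gene Krt19 fell from 6.39, 8.75 and 15.5 to 2.19, 1.74 and 0.969 CPM (−2.64 ± 0.44, adjusted p = 0.00757). Overlap with an opposite-strand gene touches exons of Tuba4a (51.9%, Stk16). Every fit without 1 library called Anxa1, S100a6, Tuba4a, Nes, Itga1 and Krt19. Calls that hung on single libraries were Anxa3 without untreated 5, 6 (up to 0.0705), Anxa2 without untreated 4, 5, 6 and treated 4, 5 (up to 0.0623) and Tuba1c without untreated 6 and treated 4, 5 (up to 0.102). The offsets gave Anxa2 −0.96 (adjusted p = 0.00408, 63.8% single-transcript), Tuba1c −1.25 (adjusted p = 0.0836, 81.6% single-transcript) and Itga1 0.80 (adjusted p = 0.0649, 84% single-transcript).

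**Figure D4:**
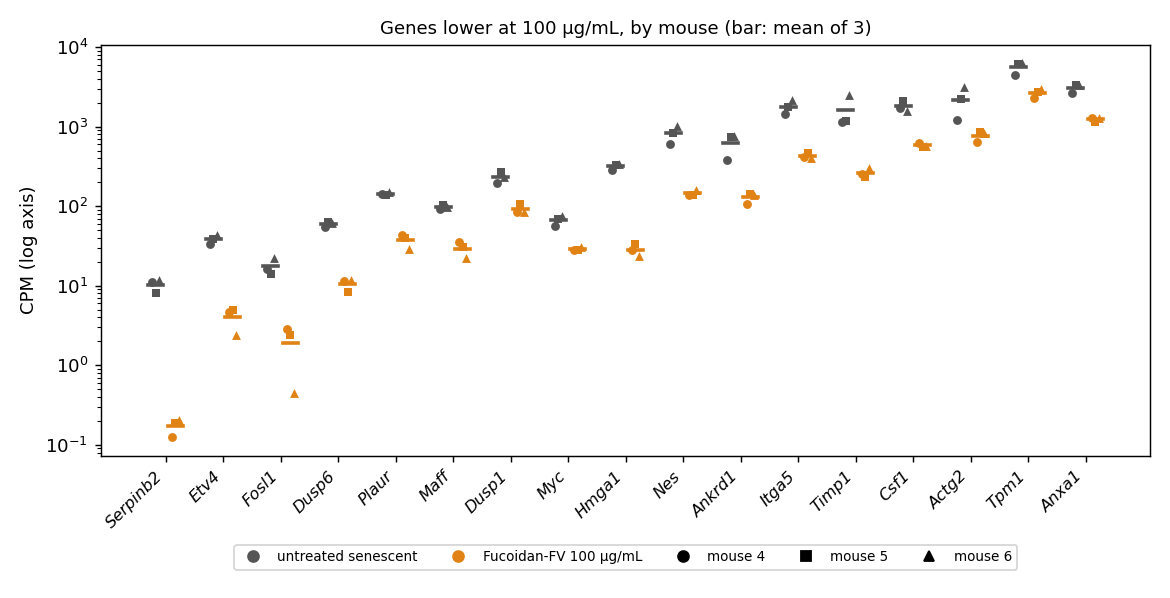
CPM on a log axis of 17 genes that fell at 100 μg/mL, with 1 point per library, its shape giving the mouse and its colour the group, and a bar at the mean of 3. In all 17 genes the 3 treated points lie below the 3 untreated ones, from Serpinb2 near 10.3 CPM untreated to Tpm1 near 5650 CPM.

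Among proteases of the matrix and their inhibitors, calls went both ways. The list of the plasminogen activator system and serpins had 3 of 13 genes lower and 2 higher (median −0.47). The receptor gene Plaur and the inhibitor gene Serpinb2 were among the lower ones, and the 2 that rose were serpin genes. Serpinb9, an inhibitor of granzyme B, rose from 20.6, 34.4 and 25.2 to 60.9, 68.3 and 306 CPM (2.44 ± 0.62, adjusted p = 0.0471), and Serping1, the inhibitor of complement C1, from 12.4, 5.0 and 5.37 to 34, 16.9 and 29.1 CPM (1.81 ± 0.43, adjusted p = 0.0382). Serpinb9 was several times higher in treated mouse 6 than in the other treated libraries. Of 33 matrix metalloproteinase, TIMP and ADAMTS genes, 5 rose, all of them proteases, and 2 fell, both of them TIMPs, the inhibitors (median 0.45). Timp1 fell from 1140, 1179 and 2479 to 254, 230 and 298 CPM (log2 fold change −2.62 ± 0.28, adjusted p = 0.00056). Timp3 was at 1453, 1036 and 927 CPM in untreated MEFs and 580, 536 and 450 CPM at 100 μg/mL (log2 fold change −1.13 ± 0.20, adjusted p = 0.00861). Among the proteases, Adamts1, which cleaves proteoglycans such as versican, rose from 135, 125 and 33.1 CPM to 805, 682 and 811 CPM (log2 fold change 2.97 ± 0.42, adjusted p = 0.00387). The lowest treated value of Adamts1 was several times the highest untreated one. Mmp13, a collagenase, was at 0.895, 0.388 and 0.883 CPM without and 9.3, 8.41 and 13.7 CPM with the fucoidan (3.84 ± 0.71, adjusted p = 0.0112). Adamts5, an aggrecanase, rose from 57.3, 21.3 and 32.2 to 505, 487 and 195 CPM (3.42 ± 0.73, adjusted p = 0.0218) and Mmp16, a membrane-type metalloproteinase, from 11.1, 18 and 11.8 to 38.7, 24.4 and 55.4 CPM (1.54 ± 0.33, adjusted p = 0.0228); Adamts9 (1.53 ± 0.39, adjusted p = 0.047) rose as well and is named to complete the count. Opposite-strand genes overlap exons of Timp3 (21.3%, Syn3). Kept in each fit without 1 library were Timp1, Adamts1 and Mmp13, and every such fit lost Serpinb9 (0.0526 to 0.168). Missing the threshold were Serping1 without untreated 5, 6 and treated 4, 5, 6 (up to 0.154), Timp3 without untreated 4, 5 (up to 0.0726), Adamts5 without untreated 5, 6 and treated 4, 5 (up to 0.0996), Mmp16 without treated 4, 6 (up to 0.0831) and Adamts9 without untreated 5, 6 and treated 4, 5, 6 (up to 0.13). Blocking on the mouse, as a replicate block, left out Serping1 (0.0504) and Adamts9 (0.0755). The offsets gave Timp1 −1.97 (adjusted p = 0.000217, 0.531% single-transcript), Timp3 −1.95 (adjusted p = 0.0135, 93.2% single-transcript), Adamts5 2.25 (adjusted p = 0.00513, 100% single-transcript) and Mmp16 1.0 (adjusted p = 0.104, 76.2% single-transcript).

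Several structural matrix genes rose. The small leucine-rich proteoglycans, which coat and space collagen fibrils, had 5 of 12 genes higher and 0 lower, with 11 of 12 above 0 and a median of 2.18 (1.64, 1.42 and 2.60 in mice 4, 5 and 6). Aspn, which binds collagen and TGF-β, was at 134, 165 and 59.8 CPM in untreated MEFs and 454, 475 and 693 CPM at 100 μg/mL (log2 fold change 2.18 ± 0.37, adjusted p = 0.0081). Ogn was at 19.1, 9.61 and 19.4 CPM without and 145, 176 and 94.2 CPM with the fucoidan (log2 fold change 3.11 ± 0.76, adjusted p = 0.042), and Dcn, decorin, was at 13.1, 22.9 and 12.7 CPM untreated and 39.2, 37.5 and 168 CPM treated (log2 fold change 2.33 ± 0.60, adjusted p = 0.0477). Dcn and Podn (2.37 ± 0.54, adjusted p = 0.0306) were highest in treated mouse 6, and Lum was low in all libraries (0.863, 0.388 and 0.748 against 6.73, 4.32 and 8.75 CPM, 3.29 ± 0.80, adjusted p = 0.0399). With the mouse as a replicate block the count of this list was 2, and without 1 library it was 1 to 2. In all 6 fits without 1 library Aspn stayed a DEG, and every such fit lost Ogn (0.0668 to 0.13), Dcn (0.0537 to 0.171) and Lum (0.068 to 0.122). Lost to single libraries was Podn without untreated 4, 5, 6 and treated 5, 6 (up to 0.102). With the replicate block the threshold was missed by Ogn (0.0606), Dcn (0.0869), Podn (0.0533) and Lum (0.0585). Under the offsets the fit gave Ogn 2.06 (adjusted p = 0.047, 100% single-transcript).

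Of 42 collagen genes and genes of collagen processing, 4 rose and 3 fell (median 0.10). Col11a1, a fibrillar collagen that limits fibril width, rose from 105, 98.5 and 50.9 to 344, 322 and 550 CPM (log2 fold change 2.26 ± 0.36, adjusted p = 0.00648). Col14a1, a fibril-associated collagen, rose from 17, 20.6 and 21.2 to 57, 52.4 and 234 CPM (2.55 ± 0.53, adjusted p = 0.0202) and Col8a2, a short-chain collagen, from 1.28, 0.474 and 1.36 to 20.5, 19.4 and 13.9 CPM (4.09 ± 0.79, adjusted p = 0.0145), beside Col3a1. Treated mouse 6 stood apart for Col14a1, at several times the other treated values. The 3 that fell were Col15a1, a basement membrane zone collagen (30.4, 25.7 and 17.4 to 4.13, 2.69 and 2.42 CPM, −2.99 ± 0.40, adjusted p = 0.00264), Col7a1, which forms anchoring fibrils (−1.69 ± 0.34, adjusted p = 0.0159), and Col5a3 (−1.02 ± 0.22, adjusted p = 0.0248). The main fibrillar collagen gene Col1a1, shown as the abundant reference of the list, was at 1822, 715 and 3024 CPM in untreated MEFs and 3017, 3388 and 1488 CPM at 100 μg/mL and missed the threshold (log2 fold change 0.51 ± 0.60, adjusted p = 0.699). None of the 17 processing enzymes was a DEG. No single library decided the calls of Col11a1 and Col15a1, and every such fit lost Col5a3 (0.0526 to 0.124). By single libraries, the loss concerned Col14a1 without untreated 5, 6 and treated 6 (up to 0.0611), Col8a2 without untreated 5, 6 and treated 4 (up to 0.059) and Col7a1 without untreated 5, 6 and treated 4, 5, 6 (up to 0.0947).

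Matricellular and elastic fibre genes had 4 of 34 higher and 0 lower (median 0.38). Fbn2, a fibrillin of developing elastic fibres, was at 16.5, 8.28 and 8.63 CPM in untreated MEFs and 79.8, 87.2 and 103 CPM at 100 μg/mL (log2 fold change 3.01 ± 0.50, adjusted p = 0.00719). Ccn3 rose from 8.4, 3.02 and 8.19 to 88.2, 81.8 and 82.2 CPM (3.68 ± 0.70, adjusted p = 0.013), Eln, elastin itself, from 36.6, 49.3 and 71.9 to 139, 141 and 311 CPM (1.90 ± 0.45, adjusted p = 0.0378), and the thrombospondin gene Thbs2 from 350, 271 and 369 to 776, 1041 and 909 CPM (1.46 ± 0.36, adjusted p = 0.0407). Fbn2 and Ccn3 showed little spread among the treated libraries, whereas Eln was highest in treated mouse 6. Heparan sulfate proteoglycans and the enzymes that sulfate them, whose chains resemble fucoidan in charge, gave 1 DEG of 31 (3.23%, beside 2.69% of all genes). It was the glypican gene Gpc3 (7.35, 1.51 and 5.67 to 22.9, 21.5 and 34.7 CPM, 2.44 ± 0.51, adjusted p = 0.0199). None of the 20 chain-modifying genes was called. In the hyaluronan list (13 genes, median 0.81) the hyaluronan-binding proteoglycan gene Vcan rose from 144, 220 and 70.4 to 390, 344 and 1056 CPM (2.04 ± 0.46, adjusted p = 0.0283) while the hyaluronan receptor gene Cd44 fell from 1201, 1027 and 709 to 392, 321 and 315 CPM (−1.51 ± 0.26, adjusted p = 0.00792). Leaving out any 1 of the 6 libraries kept the calls of Fbn2 and Cd44, and every such fit lost Thbs2 (0.0654 to 0.145). Calls that hung on single libraries were Ccn3 without untreated 5 (0.0548), Eln without untreated 4, 5 and treated 4, 5, 6 (up to 0.113), Gpc3 without untreated 6 and treated 4, 5, 6 (up to 0.0668) and Vcan without untreated 4 and treated 6 (up to 0.0937). Blocking on the mouse, as a replicate block, left out Thbs2 (0.0616) and Vcan (0.0661). Log2 fold changes with the offsets were Ccn3 2.89 (adjusted p = 0.00424, 100% single-transcript) and Thbs2 0.90 (adjusted p = 0.0685, 87% single-transcript).

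**Figure D5:**
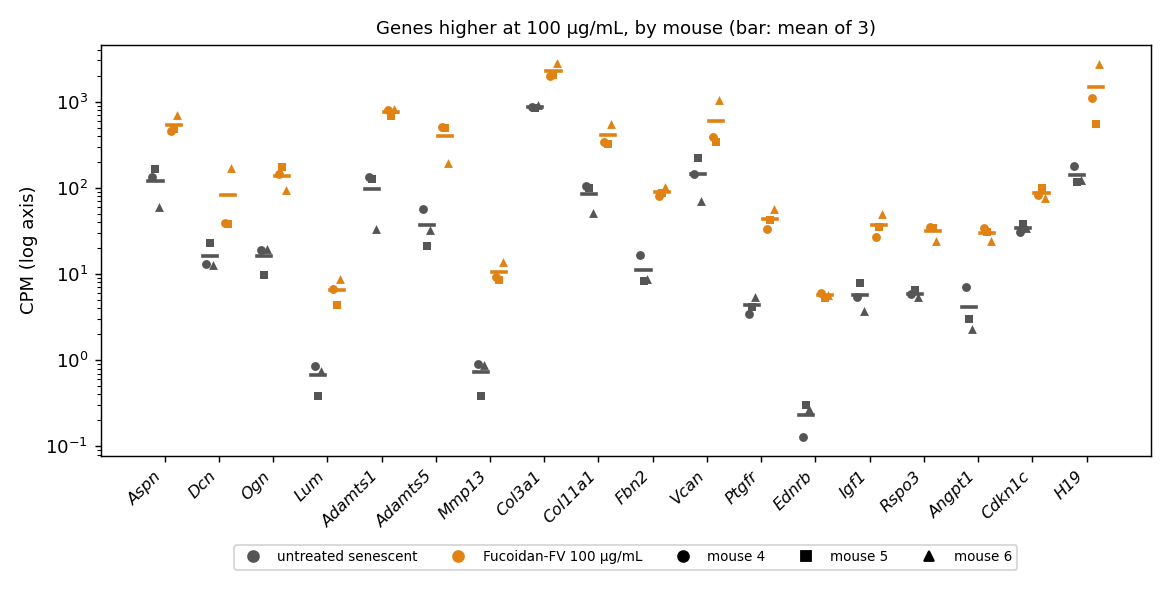
CPM on a log axis of 18 genes that rose at 100 μg/mL, with 1 point per library, its shape giving the mouse and its colour the group, and a bar at the mean of 3. In all 18 genes the 3 treated points lie above the 3 untreated ones; the treated points of Dcn, Vcan and H19 are spread by mouse, while those of Adamts1, Ednrb and Rspo3 lie close together.

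Growth factor and receptor genes held further calls. In the insulin-like growth factor system 3 of 18 genes rose and 0 fell (median 1.24, 0.33 with offsets). The ligand gene Igf1 was at 5.43, 7.8 and 3.67 CPM in untreated MEFs and 26.7, 35.1 and 49.7 CPM at 100 μg/mL (log2 fold change 2.72 ± 0.46, adjusted p = 0.00792). The binding protein gene Igfbp5 rose from 76.6, 85.9 and 43.8 to 162, 143 and 410 CPM (1.79 ± 0.43, adjusted p = 0.0386) and the docking protein gene Irs1 from 30.9, 27.6 and 16.6 to 51.7, 54.8 and 72.6 CPM (1.25 ± 0.25, adjusted p = 0.0159). Igfbp5 was much higher in treated mouse 6 than in the others. Of 24 genes that FOXO factors induce when insulin signals are low, 2 rose and 0 fell (median 0.90, 0.36 with offsets): Sesn3, a sestrin (29.4, 32.2 and 12.9 to 67.7, 69.2 and 67.4 CPM, 1.46 ± 0.30, adjusted p = 0.0185), and the selenium transport gene Selenop (15.2, 18.9 and 17 to 63, 49.9 and 149 CPM, 2.36 ± 0.42, adjusted p = 0.00956). Every fit without 1 library called Igf1 and Selenop. Missing the threshold were Igfbp5 without untreated 4, 5, 6 and treated 4, 6 (up to 0.121), Irs1 without treated 5, 6 (up to 0.0611) and Sesn3 without treated 4, 5, 6 (up to 0.0678). With the replicate block the threshold was missed by Igfbp5 (0.0742). The offsets gave Irs1 0.32 (adjusted p = 0.771, 100% single-transcript).

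Vascular mediators gave 4 higher and 1 lower of 25 genes (median 0.27). Ednrb, the endothelin B receptor, was at 0.128, 0.302 and 0.272 CPM in untreated MEFs and 5.98, 5.26 and 5.67 CPM at 100 μg/mL (log2 fold change 4.58 ± 0.56, adjusted p = 0.00155), and Ednra, the A receptor, rose from 2.91, 3.02 and 1.97 to 8.86, 10.9 and 14.2 CPM (2.10 ± 0.37, adjusted p = 0.00954). Angpt1, a ligand that stabilises vessels, was at 7.03, 2.97 and 2.31 CPM without and 34.1, 30.3 and 24.3 CPM with the fucoidan (2.84 ± 0.51, adjusted p = 0.00956). Its receptor gene Tek, an endothelial marker, was at 0.863, 0.172 and 0.408 CPM untreated and 4.88, 4.77 and 7.96 CPM treated (3.58 ± 0.90, adjusted p = 0.0446). The placental growth factor gene Pgf fell from 20, 28.5 and 42.6 to 6.1, 6.21 and 7.13 CPM (−2.23 ± 0.34, adjusted p = 0.00482). In the prostaglandin list 1 of 15 genes rose and 1 fell (median −0.32). Ptgfr (ENSMUSG00000028036, chr3:151502139-151543267), the receptor of prostaglandin F2α, had the smallest adjusted p of all genes that rose, at 3.45, 4.1 and 5.47 CPM in untreated MEFs and 33.6, 41.9 and 56.4 CPM at 100 μg/mL (log2 fold change 3.34 ± 0.35, adjusted p = 0.000442), and the prostaglandin transporter gene Slco2a1 fell from 40.8, 35.8 and 23.4 to 15.4, 15.1 and 5.26 CPM (−1.49 ± 0.39, adjusted p = 0.0489). Within each mouse the treated values of Ednrb and Ptgfr were about an order of magnitude or more above the untreated ones. Opposite-strand genes overlap exons of Ednra (27.2%, Gm45714). Kept in each fit without 1 library were Ednrb, Ednra, Pgf and Ptgfr, and every such fit lost Tek (0.0553 to 0.138) and Slco2a1 (0.0977 to 0.206). Lost to single libraries was Angpt1 without untreated 5 (0.0506). A fit with the replicate block did not call Tek (0.0525). The offsets gave Slco2a1 −2.15 (adjusted p = 0.00182, 82% single-transcript).

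In the Wnt pathway 3 of 50 genes rose and 3 fell (median 0.43). Rspo3, a secreted Wnt amplifier, was at 5.82, 6.6 and 5.37 CPM in untreated MEFs and 35.5, 33.7 and 24.2 CPM at 100 μg/mL (log2 fold change 2.39 ± 0.32, adjusted p = 0.00232). The receptor gene Fzd4 rose from 1.98, 0.69 and 1.39 to 12.5, 10.6 and 7.13 CPM (2.88 ± 0.69, adjusted p = 0.0382) and the soluble inhibitor gene Sfrp1 from 18.4, 4.74 and 8.22 to 120, 91.8 and 64.6 CPM (3.13 ± 0.68, adjusted p = 0.0235). Fzd4 and Sfrp1 differed between untreated libraries more than Rspo3 did. The genes that fell were the target Axin2, the nuclear effector Lef1 (17.3, 23.6 and 13.9 to 4.7, 3.71 and 2.7 CPM, −2.30 ± 0.39, adjusted p = 0.00792) and the ligand Wnt11 (13.4, 18.4 and 29.2 to 6.64, 5.19 and 5.4 CPM, −1.82 ± 0.42, adjusted p = 0.0324). Receptor and co-receptor genes had a median of 1.35 over 18 genes (0.78 with offsets), and intracellular components one of −0.20 over 10. In the TGF-β superfamily 1 of 42 genes rose (Bmp3) and 3 fell (median 0.16). The genes that fell were the BMP target genes Id1 (50.5, 47 and 93 to 11.8, 10.5 and 2.08 CPM, −2.97 ± 0.62, adjusted p = 0.0198), Id2 (32.1, 34.3 and 32.4 to 15, 12.4 and 6.51 CPM, −1.54 ± 0.35, adjusted p = 0.0312) and Id3 (109, 89.8 and 213 to 55.1, 60.2 and 19.5 CPM, −1.61 ± 0.40, adjusted p = 0.0446), which encode inhibitors of differentiation. Id1 and Id3 were lowest in treated mouse 6. Opposite-strand genes overlap exons of Id2 (22.8%, Gm59395). In all 6 fits without 1 library Rspo3 stayed a DEG, and every such fit lost Fzd4 (0.0559 to 0.131), Id2 (0.0577 to 0.127) and Id3 (0.081 to 0.319). By single libraries, the loss concerned Sfrp1 without untreated 5, 6 and treated 4, 5 (up to 0.10), Lef1 without untreated 5 (0.0506), Wnt11 without untreated 5, 6 and treated 4, 5, 6 (up to 0.163) and Id1 without untreated 4, 5, 6 and treated 4, 5 (up to 0.11). Blocking on the mouse, as a replicate block, left out Fzd4 (0.0658) and Id3 (0.0687). The offsets gave Fzd4 1.98 (adjusted p = 0.00843, 100% single-transcript) and Sfrp1 2.42 (adjusted p = 0.00198, 100% single-transcript).

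Smaller families held 1 to 3 calls each, beside 2.69% of all genes tested. Of the FGF and HGF genes, 1 of 16 rose, the ligand gene Fgf18 (3.29, 2.07 and 1.73 to 6.89, 7.91 and 11.2 CPM, 1.87 ± 0.49, adjusted p = 0.0496), with a list median of 0.81. Of the EGF family, 1 of 13 fell, the ligand gene Hbegf, and no receptor was called (list median 0.47). In the Notch pathway the non-canonical ligand gene Dner was the sole DEG of 16, at 3.99, 4.05 and 2.45 CPM in untreated MEFs and 14.8, 20.7 and 8.55 CPM at 100 μg/mL (2.07 ± 0.42, adjusted p = 0.0164; list median 0.33). Class 3 semaphorins, secreted guidance proteins, had 2 of 13 higher (median 0.51): Sema3d (9.78, 13.6 and 2.34 to 42.6, 43.5 and 107 CPM, 2.91 ± 0.62, adjusted p = 0.0223) and Sema3f (38.6, 20.6 and 23.8 to 85.5, 61.8 and 86.6 CPM, 1.5 ± 0.27, adjusted p = 0.00956). Adipogenic and mesenchymal progenitor genes had 2 higher and 1 lower of 28, with 24 above 0 and a median of 1.3. The called ones were Fmo1, Gas1, a growth arrest gene (5.69, 3.84 and 4.45 to 16.3, 16.8 and 13.9 CPM, 1.75 ± 0.35, adjusted p = 0.0171), and Aldh1a3, which makes retinoic acid and fell from 26.5, 26.2 and 61.2 to 15.4, 13.3 and 5.47 CPM (−1.74 ± 0.40, adjusted p = 0.0324). The microtubule gene Map2, a neural marker, rose from 2.17, 4.27 and 0.578 to 16.2, 17.1 and 24 CPM (3.04 ± 0.53, adjusted p = 0.00897). No single library decided the call of Map2, and every such fit lost Aldh1a3 (0.064 to 0.25). Calls that hung on single libraries were Fgf18 without untreated 5, 6 and treated 4, 5, 6 (up to 0.143), Dner without untreated 5, 6 and treated 4, 5 (up to 0.0948), Sema3d without untreated 4 and treated 6 (up to 0.077), Sema3f without treated 4 (0.0512) and Gas1 without untreated 5 and treated 4, 5 (up to 0.075). With the replicate block the threshold was missed by Fgf18 (0.0742), Sema3d (0.057) and Aldh1a3 (0.0687).

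In the inflammatory arm of the SASP, 1 of 23 cytokine and chemokine genes tested, of 37 listed, rose and 2 fell (13% called, beside 2.69% of all genes, median 0.01), the latter being Csf1 and Clcf1, an interleukin 6 family cytokine (26.7, 23.8 and 34.3 to 14, 13 and 14.9 CPM, −1.01 ± 0.25, adjusted p = 0.0412). Cxcl5, a neutrophil chemokine, was at 0.991, 2.03 and 0.306 CPM in untreated MEFs and 16.5, 7.27 and 42.2 CPM at 100 μg/mL (log2 fold change 4.32 ± 1.11, adjusted p = 0.0471). All 7 CXC chemokines tested, of 10 listed, had a log2 fold change above 0 (median 2.17). Genes near the floor can pass the filter through groups where they are high, so these signs carry no weight by themselves. With at least 10 counts in every sample the CXC median was 0.73. Cxcl1 was at 0.383, 0.0431 and 0.034 CPM without and 0.783, 0.719 and 0.657 CPM with the fucoidan (2.17 ± 1.52, adjusted p = 0.472) and Cxcl15 at 0.0959, 0.0431 and 0.136 CPM without and 1.82, 0.871 and 0.90 CPM with the fucoidan (3.63 ± 1.12, adjusted p = 0.0971), and neither passed the test. Il6 was at 2.59, 1.77 and 5.78 CPM without and 1.82, 1.86 and 4.01 CPM with the fucoidan (−0.40 ± 0.74, adjusted p = 0.824), and Ccl2 at 17.5, 10.6 and 9.38 CPM without and 18.7, 14.3 and 11.7 CPM with the fucoidan (0.25 ± 0.35, adjusted p = 0.745), with overlapping groups for both. Tnf and Il1b had too few counts to be tested. None of 15 genes of NF-κB, the main inducer of the SASP, was a DEG (median −0.26; Rela was at 98.7, 105 and 129 CPM without and 86, 84.1 and 91.7 CPM with the fucoidan, −0.34 ± 0.17, adjusted p = 0.28), nor was any of 31 interferon-stimulated genes (median 0.09; Irgm1 was at 106, 162 and 166 CPM without and 67.8, 75.8 and 110 CPM with the fucoidan, −0.78 ± 0.26, adjusted p = 0.117). Complement genes gave 3 of 15 higher and 0 lower (median 0.58): the protease gene C1ra (2.72, 2.67 and 2.17 to 10.1, 9.28 and 9.69 CPM, 1.94 ± 0.49, adjusted p = 0.0452), the regulator gene Cd55 (11.5, 9.7 and 5.61 to 40.3, 36.4 and 47.7 CPM, 2.21 ± 0.45, adjusted p = 0.0172) and Serping1. Among toll-like, scavenger and lectin receptors that can bind polysaccharides, 1 of 22 fell (4.55% called, beside 2.69% of all genes, list median 0.57). It was the scavenger receptor gene Scarb1 (41.4, 49.9 and 58.3 to 25.9, 25.1 and 21 CPM, −1.05 ± 0.19, adjusted p = 0.00956). Overlap with an opposite-strand gene touches exons of Cxcl5 (27.6%, Gm72413). Each fit without 1 library lost Clcf1 (0.0642 to 0.173), Cxcl5 (0.0683 to 0.151) and C1ra (0.0727 to 0.153). Missing the threshold were Cd55 without untreated 5 and treated 4, 5, 6 (up to 0.0604) and Scarb1 without untreated 4, 5, 6 and treated 6 (up to 0.0722). Blocking on the mouse, as a replicate block, left out Clcf1 (0.0504), Cxcl5 (0.104) and C1ra (0.0699). Log2 fold changes with the offsets were Clcf1 −0.83 (adjusted p = 0.0273, 51.1% single-transcript) and C1ra 1.17 (adjusted p = 0.143, 100% single-transcript).

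Of the marks of senescence itself, the genes of p21 and p16 did not pass the test. Cdkn1a, the p21 gene, was at 1569, 1866 and 1520 CPM in untreated MEFs and 1254, 1455 and 1613 CPM at 100 μg/mL (log2 fold change −0.20 ± 0.18, adjusted p = 0.596, 95% interval −0.58 to 0.19). Cdkn2a, the p16 and Arf gene, was at 203, 191 and 351 CPM without and 185, 205 and 145 CPM with the fucoidan (log2 fold change −0.48 ± 0.24, adjusted p = 0.292, 95% interval −0.99 to 0.04). The groups overlapped for both genes. The estimate for Cdkn2a turned to 0.21 with the offsets and 0.02 without untreated mouse 6, and that for Cdkn1a to 0.28 with log2 TPM and 0.04 without untreated mouse 5. Medians over all genes in these fits were −0.12, 0.13, 0.34 and 0.16, in that order. Of 7 CDK inhibitor genes, 1 rose, the imprinted gene Cdkn1c of p57, from 30.5, 38.3 and 33.7 to 82.7, 99.2 and 76.7 CPM (log2 fold change 1.34 ± 0.20, adjusted p = 0.00448). Of 28 p53 targets, 1 fell and 0 rose (3.57% called, beside 2.69% of all genes, median 0.29). It was Plk3, a stress kinase gene (23.6, 29.8 and 32.3 to 10, 13 and 11.8 CPM, −1.30 ± 0.24, adjusted p = 0.010). Cell division genes were below 0 in most cases. Of 45 G2/M genes 2 fell, 0 rose and 36 lay below 0 (4.44% called, beside 2.69% of all genes, median −0.52). The DEGs were the spindle assembly gene Tpx2 (27, 33.3 and 38.7 to 13.5, 10.9 and 19.6 CPM, −1.17 ± 0.22, adjusted p = 0.0126) and Bora, a cofactor of Aurora A (5.08, 9.74 and 8.15 to 3.16, 3.63 and 2.49 CPM, −1.30 ± 0.34, adjusted p = 0.0481). The median of this list was −0.27 without untreated mouse 6 and −0.15 with log2 TPM in limma, with 0 called in both. Medians over all genes in these 2 fits were 0.13 and 0.34, so the list lay below them in both. Of 39 replication genes 3 fell and 31 lay below 0 (median −0.55, −0.14, −0.39 and −0.87 in mice 4, 5 and 6). Without untreated mouse 6 that median was −0.05 with 0 called, and with log2 TPM in limma it was −0.13 with 0 called. Both values also lay below the medians over all genes in those fits. Rpa1, a subunit of the single-strand binding protein RPA, was at 114, 141 and 169 CPM in untreated MEFs and 62.2, 56 and 71.5 CPM at 100 μg/mL (log2 fold change −1.16 ± 0.18, adjusted p = 0.00542). The clamp loader gene Rfc5 (26.6, 39.4 and 62.9 to 13.8, 11.9 and 19.5 CPM, −1.51 ± 0.31, adjusted p = 0.0178) and the helicase subunit gene Mcm6 (19.8, 21.9 and 33.6 to 10.4, 11.2 and 13.8 CPM, −1.09 ± 0.26, adjusted p = 0.0395) were the others. Overlap with an opposite-strand gene touches exons of Cdkn1c (29%, Gm44732) and Rfc5 (41.4%, Wsb2). Leaving out any 1 of the 6 libraries kept the call of Cdkn1c, and every such fit lost Bora (0.0654 to 0.205). Single libraries decided Plk3 without untreated 5 and treated 4 (up to 0.0683), Tpx2 without untreated 6 and treated 4, 5 (up to 0.0691), Rpa1 without untreated 6 (log2 fold change −0.87), Rfc5 without untreated 6 and treated 4, 5 (up to 0.0969) and Mcm6 without untreated 5, 6 and treated 4, 5, 6 (up to 0.163). The replicate block ended the call of Bora (0.0714).

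DNA repair genes gave no DEG in any of 4 lists. Rpa1, Rfc5 and Mcm6, which the study counts among its cell cycle and DNA repair genes, fell and stood here in the replication list. The study reports increased expression of repair gene sets by enrichment analysis, which was not run here. The median log2 fold change was −0.07 over 23 genes of nonhomologous end joining, −0.13 over 39 of homologous recombination and the Fanconi anemia pathway, −0.16 over 23 of nucleotide excision repair and −0.15 over 27 of base excision and mismatch repair, beside −0.02 over all genes. The most abundant member of each was Parp3 (161, 165 and 128 CPM without and 151, 157 and 167 CPM with the fucoidan; 0.07, 95% interval −0.28 to 0.42, adjusted p = 0.874), Slx4 (38.9, 42.3 and 29.4 CPM without and 31.7, 29.3 and 39.9 CPM with the fucoidan; −0.13, 95% interval −0.63 to 0.37, adjusted p = 0.812), Ddb1 (992, 1123 and 862 CPM without and 954, 936 and 998 CPM with the fucoidan; −0.04, 95% interval −0.38 to 0.29, adjusted p = 0.914) and Apex1 (65.8, 62 and 130 CPM without and 45.5, 47.1 and 59.7 CPM with the fucoidan; −0.76, 95% interval −1.32 to −0.19, adjusted p = 0.124). The groups overlapped for the first 3 of these genes, while Apex1 was lower in all treated libraries and did not pass the test. Of the 7 sirtuins, NAD-dependent deacylases that include the repair regulator Sirt6, none was a DEG (median −0.22). Sirt6 was at 9.01, 10.3 and 13.6 CPM in untreated MEFs and 10.5, 11.1 and 8.17 CPM at 100 μg/mL (−0.15, 95% interval −0.75 to 0.45, adjusted p = 0.824), with overlapping groups.

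Metabolic and stress lists gave at most 1 DEG in a direction. The shares called were 3.12% for cholesterol synthesis, 3.03% for glycolysis and hypoxia and 2.63% for the unfolded protein and integrated stress responses. These shares lie near the 2.69% of all genes, and that of the antioxidant genes was 6.67%. Cholesterol synthesis had 1 of 32, the sterol carrier gene Stard4 (1.85, 0.905 and 1.97 to 7.2, 5.87 and 2.98 CPM, 1.75 ± 0.45, adjusted p = 0.0481; list median 0.38). Glycolysis and the hypoxia response had 1 of 33, the stress-responsive gene Ndrg1 (8.56, 11.4 and 4.93 to 26.8, 24.5 and 32.5 CPM, 1.75 ± 0.35, adjusted p = 0.0164; median −0.28). In the unfolded protein and integrated stress responses 1 of 38 fell, the serine synthesis gene Psat1 (105, 129 and 119 to 56.4, 46.3 and 64.4 CPM, −1.08 ± 0.18, adjusted p = 0.00748; median −0.05). Antioxidant genes of NRF2 had Prdx1, a peroxiredoxin, lower (567, 599 and 673 to 274, 266 and 327 CPM, −1.09 ± 0.16, adjusted p = 0.00407) and Gpx3, the secreted glutathione peroxidase, higher (81.8, 59.7 and 54.3 to 136, 133 and 129 CPM, 1.03 ± 0.20, adjusted p = 0.0159), of 30 tested (median −0.32). No call was made among 13 mitochondrially encoded genes (median 0.18; mt-Co1 was at 1708, 1685 and 1987 CPM without and 1891, 2080 and 1786 CPM with the fucoidan) or 48 lysosomal genes (median 0.16; Ctsd was at 2869, 3172 and 3969 CPM without and 2655, 2475 and 4069 CPM with the fucoidan). Opposite-strand genes overlap exons of Gpx3 (85%, Tnip1). By single libraries, the loss concerned Stard4 without untreated 4, 5, 6 and treated 4, 5 (up to 0.199), Ndrg1 without treated 4, 5, 6 (up to 0.0593), Psat1 without untreated 4, 5, 6 and treated 5 (log2 fold change −0.87), Prdx1 without untreated 4, 5, 6 (log2 fold change −0.87) and Gpx3 without treated 4, 5 (up to 0.0682). A fit with the replicate block did not call Stard4 (0.0699). The offsets gave Stard4 1.53 (adjusted p = 0.0982, 8.44% single-transcript) and Gpx3 0.93 (adjusted p = 0.0515, 76.9% single-transcript).

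The genes that the study names for this RNA-Seq were chosen on these samples and are no independent evidence of a direction. Of 24 tested of 26, 3 rose and 10 fell. The study's upregulated network held Anxa1, Anxa3, Cd44, Csrp1 and Timp1, which fell here. Its repair genes named next stood in the same network, and its SASP genes named after them in the downregulated network. All these genes had a sign here opposite to that of the study, and the cause was not tested. Of its repair genes Rpa1, Rfc5, Mcm6 and Plk3 fell, whereas the excision repair gene Ercc1 was at 32.2, 39.5 and 64.8 CPM without and 21.7, 20.9 and 21.1 CPM with the fucoidan (−1.10 ± 0.31, adjusted p = 0.0633) and the mitotic kinase gene Aurka at 6.61, 7.63 and 12.3 CPM without and 3.16, 3.41 and 2.49 CPM with the fucoidan (−1.55 ± 0.42, adjusted p = 0.0563), both short of the threshold. Of its SASP genes Mmp13, Dcn and Cxcl5 rose; Hgf, the hepatocyte growth factor, was at 10.1, 12.9 and 3.13 CPM without and 26.6, 21.1 and 59.3 CPM with the fucoidan (2.03 ± 0.58, adjusted p = 0.0675), and the TGF-β receptor gene Tgfbr2 at 132, 126 and 62.3 CPM without and 184, 186 and 319 CPM with the fucoidan (1.10 ± 0.29, adjusted p = 0.0517). In Hgf and Tgfbr2 the groups did not overlap, and treated mouse 6 was the highest. Opposite-strand genes overlap exons of Aurka (25.2%, Fam210b). Under the offsets the fit gave Ercc1 −1.08 (adjusted p = 0.0378, 27.3% single-transcript) and Aurka −1.35 (adjusted p = 0.0391, 23.9% single-transcript).

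Whether the higher dose gave other levels was tested directly between the treated groups. At 300 against 100 μg/mL, 1 gene was a DEG (0.00665% of the genes tested) in edgeR's test, and 94 genes had an unadjusted p under 0.05. It was Pif1, a DNA helicase gene, at 0.32, 0.776 and 0.646 CPM untreated, 0.97, 0.606 and 1.0 CPM at 100 μg/mL and 0 CPM in all 3 libraries at 300 μg/mL, at least 22.7-fold lower against 3 counts over the group (adjusted p = 0.0399). The call was lost with the mouse as a replicate block and without any 1 of the libraries at 100 μg/mL. Of the 405 DEGs of the lower dose, none had an adjusted p under 0.05 between the doses, and for 395 the 95% interval of the log2 difference included 0. That interval lay within 1 log2 unit of 0 for 237 of them and reached farther for the rest, so for those a change of that size between the doses was not shown to be absent. Hmga1 was at 27.8, 33.5 and 23.9 CPM at 100 μg/mL and 32.6, 35.9 and 30.7 CPM at 300 μg/mL (0.22, 95% interval −0.24 to 0.68). Ptgfr was at 33.6, 41.9 and 56.4 CPM at 100 μg/mL and 25.9, 38 and 38.4 CPM at 300 μg/mL (−0.37, 95% interval −1.05 to 0.32). Timp1 was at 254, 230 and 298 CPM at 100 μg/mL and 325, 244 and 242 CPM at 300 μg/mL (0.05, 95% interval −0.52 to 0.63). In all 3 genes both doses lay on the same side of the untreated level. Against the same untreated libraries, the log2 fold change at 300 μg/mL was −3.28 for Hmga1, 2.97 for Ptgfr and −2.57 for Timp1, beside −3.50, 3.34 and −2.62 at 100 μg/mL, and both comparisons share those libraries.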

How the data were processed

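Per the labels and the study's methods, total RNA was made into stranded libraries (TruSeq Stranded Total RNA) and sequenced in pairs; the submitters' processing notes name FastQC 0.12.1, Trimmomatic, STAR 2.7.11b and the build GRCm39. The authors deposited RSEM 1.3.1 expected counts, estimated per gene and not normalized, and TPM, which RSEM had divided by gene length and library size. Whether RSEM counted by strand is not given in the sources used here.

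Expected counts were rounded, filtered with filterByExpr (minimum count 10, minimum total 15) and tested with edgeR 4.0.16 in R 4.3.3 (TMM, quasi-likelihood F test), in 1 fit over the 4 groups. The 2 libraries of control mouse 5 were summed. P-values were adjusted by Benjamini-Hochberg over 15034 genes. Every adjusted p in the text is from this test, unless another fit or the comparison between the doses is named. A DEG had an adjusted p under 0.05 and a log2 fold change over 1 in size, the thresholds of the study, which used DESeq2. The rule for named genes took the 10 largest changes in each direction (where the higher group averaged 1 CPM or more), the 10 most abundant DEGs in each direction, up to 4 DEGs per list and direction by adjusted p, and the genes the study names. In a list with 5 DEGs or fewer, or none, others could stand as examples. The gene lists and the comparison were chosen with earlier results of these data known, and no test was run over a list. Some genes and 1 sequence that the rule took are not reported here.

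Every library held at least 22782505 expected counts. Intervals from counts cover counting error alone. On simulated counts for this comparison (14334 genes), 56% of genes changed by 1.5 on the log2 scale and 81.8% of those changed by 3.0 were called, with 7 unchanged genes. The simulated counts varied independently by gene, without the deviation of single-transcript genes between libraries. These numbers therefore need not hold for the real libraries. The labels give each mouse number to both groups, so same-numbered libraries come from 1 animal. The correlation of their deviations from the group means was 0.33 for mouse 4, −0.33 for mouse 5 and −0.25 for mouse 6. Between libraries of different numbers it ran from −0.4 to 0.46, with treated 6 and untreated 5 the highest. Those 2 libraries were also the lowest of their groups for genes over 95% single-transcript (−0.20 and −0.75). How far that property set the correlations was not tested, so they cannot decide the pairing. The pairing therefore rests on the labels, and the fit with the mouse as a replicate block is given where it changed a call. Alternatives were DESeq2 1.42.0, RLE factors, other filters, other sets of samples, the replicate block, the offsets, limma 3.58.1 on log2 TPM plus 0.5 and each library left out in turn.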

Additional observations from a re-analysis of the deposited data

Results flagged for a closer look

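Pif1, which encodes a DNA helicase of telomeres and mitochondria, differed between the doses in the direct test of 300 against 100 μg/mL (adjusted p = 0.0399, edgeR). Its counts over 3 libraries each were 47 without the fucoidan, 76 at 100 μg/mL and 0 at 300 μg/mL, and its level in control MEFs was 16.4, 15 and 15.6 CPM for mice 4, 5 and 6. At 100 μg/mL it did not differ from the untreated level by the test (0.58 ± 0.46, adjusted p = 0.543). All 3 libraries at 300 μg/mL were lower than all 3 at 100 μg/mL.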

How the results depend on the processing

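Beside 405 DEGs as reported (165 higher and 240 lower), DESeq2 gave 826 (522 higher and 304 lower), no filter on low counts 800 (534 higher and 266 lower), at least 10 counts in every sample 338 (181 higher and 157 lower), a fit of just the 2 groups 168 (93 higher and 75 lower), one of the 3 senescent groups 327 (217 higher and 110 lower), RLE factors 321 (174 higher and 147 lower), log2 TPM with limma 332 (265 higher and 67 lower), the sample set without genes over 95% single-transcript 391 (220 higher and 171 lower), and the control libraries kept apart 348 (125 higher and 223 lower). The replicate block gave 321 (121 higher and 200 lower), the offsets 640 (248 higher and 392 lower) and both 650 (244 higher and 406 lower). An adjusted p alone passed 605 genes (171 higher and 434 lower). Without 1 library the count was 136 to 365 (53 to 192 higher and 83 to 173 lower). The DEGs shared with those as reported were 352 for DESeq2, 295 for the replicate block and 322 for the offsets. No DEG among the named genes turned its direction under these alternatives. Of the named genes that were not DEGs, Cdkn1a (−0.20), Cdkn2a (−0.48), Il6 (−0.40) and Sirt6 (−0.15) turned under some, each with log2 TPM (0.28, 0.04, 0.13 and 0.32). The median over all genes with log2 TPM was 0.34, and each of these values lay below it. Of 132 named genes, the calls lost numbered 9 with DESeq2, 27 with the replicate block, 11 with the offsets and 39 to 62 without 1 library. They numbered 51 in the fit of just the 2 groups, 36 with log2 TPM and 28 in the 3 senescent groups. RLE factors lost 22, and the control libraries kept apart lost 23. The lost calls listed gene by gene above do not cover these last settings. The fit without a library has fewer samples, and beyond that the cause was not tested. Between the doses there was 1 DEG as reported, 2 without a filter, and 0 with at least 10 counts in every sample, where Pif1 is not tested, in the 3 senescent groups, with the replicate block alone or with offsets, and without any 1 of the libraries at 100 μg/mL. Depth limits the genes with few counts most: Fmo1, Necab1 and Bmp3 rest on 162, 248 and 188 counts over the 3 treated libraries.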

Other observations

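The gene groups and genes in this section were picked after their values were seen, so their counts support nothing on their own. Of 24 genes of actin filament assembly, 8 fell and 0 rose, with a median of −0.77 (−0.66, −0.84 and −0.62 in mice 4, 5 and 6): the Arp2/3 complex genes Arpc1b (−1.14 ± 0.20, adjusted p = 0.00956), Arpc4 (−1.03 ± 0.22, adjusted p = 0.0214) and Arpc5 (−1.10 ± 0.20, adjusted p = 0.00956), the capping protein gene Capg (214, 210 and 415 to 88.2, 77 and 92.5 CPM, −1.70 ± 0.26, adjusted p = 0.00448), the coactosin gene Cotl1 (58.6, 84.5 and 142 to 28.7, 34.1 and 26.7 CPM, −1.67 ± 0.28, adjusted p = 0.00792), the fascin gene Fscn1 (−1.16 ± 0.22, adjusted p = 0.013), profilin 1, Pfn1 (−1.08 ± 0.26, adjusted p = 0.0393), and Tagln2 (179, 187 and 386 to 66.8, 65.3 and 51.2 CPM, −2.04 ± 0.28, adjusted p = 0.00294). Exons of Pfn1 are overlapped by an opposite-strand gene (31.9%, Rnf167). Every fit without 1 library called Capg, Cotl1 and Tagln2. Calls that hung on single libraries were Arpc1b without untreated 6 and treated 4, 5 (up to 0.0537), Arpc4 without untreated 5, 6 and treated 4, 5, 6 (up to 0.107), Arpc5 without untreated 5, 6 and treated 4, 5 (up to 0.0552), Fscn1 without untreated 6 and treated 4, 5, 6 (up to 0.0623) and Pfn1 without untreated 5, 6 and treated 4, 5, 6 (up to 0.132). A fit with the replicate block did not call Pfn1 (0.0669). Log2 fold changes with the offsets were Arpc4 −0.91 (adjusted p = 0.00468, 2.18% single-transcript), Arpc5 −0.97 (adjusted p = 0.00219, 15.9% single-transcript) and Fscn1 −0.94 (adjusted p = 0.00136, 27.2% single-transcript). Cytosolic ribosomal protein genes were lower as a rule: 81 of 82 lay below 0, with a median of −0.92 (−0.47, −0.68 and −1.35 in mice 4, 5 and 6, −0.58 with offsets and −0.34 without untreated mouse 6). Of these, 9 were DEGs, 1 with the replicate block and 0 to 16 without 1 library. Over all genes the median was −0.12 with offsets and 0.13 without untreated mouse 6.

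Of 32 imprinted genes 4 rose and 1 fell (median 0.80, 0.40 with offsets). Beside H19 and Cdkn1c, Mest rose from 5.24, 5.47 and 1.73 to 46.4, 31.4 and 88.5 CPM (3.74 ± 0.50, adjusted p = 0.00274) and Peg3 from 47.9, 63.8 and 15.9 to 103, 96.5 and 243 CPM (1.80 ± 0.45, adjusted p = 0.0446), while Dlk1 fell from 12.1, 18.2 and 17.5 to 6.86, 5.41 and 3.18 CPM (−1.63 ± 0.35, adjusted p = 0.0229). Exons of Mest are overlapped by an opposite-strand gene (47.7%, Copg2). Kept in each fit without 1 library were H19, Cdkn1c and Mest, and every such fit lost Dlk1 (0.0512 to 0.117). A single library or more decided Peg3 without untreated 4 and treated 4, 5, 6 (up to 0.139). The replicate block ended the call of Peg3 (0.0924). Igf2, the gene next to H19, was at 58.9, 43.2 and 17.8 CPM without and 112, 53.4 and 133 CPM with the fucoidan (1.32 ± 0.52, adjusted p = 0.176).

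Other DEGs outside the lists that held in each fit without 1 library, with the replicate block and with the offsets are given next, picked by their values. Nrcam, a neuronal adhesion gene, fell from 16.6, 19.8 and 15.1 to 3.1, 3.1 and 3.56 CPM (−2.40 ± 0.41, adjusted p = 0.00792). Ntrk3, the receptor of neurotrophin 3, rose from 0.383, 0.345 and 0.442 to 5.51, 6.81 and 11.2 CPM (4.31 ± 0.72, adjusted p = 0.0075), Slit3, an axon guidance ligand, from 39.2, 26.2 and 19.1 to 133, 147 and 106 CPM (2.19 ± 0.36, adjusted p = 0.00719), and Ptn, pleiotrophin, from 32.3, 30.1 and 30.4 to 154, 140 and 378 CPM (2.85 ± 0.49, adjusted p = 0.00802). In each of these 4 genes the groups did not overlap, and the offsets gave 3.67 for Ntrk3 and 1.51 for Slit3. Tnfsf15, a ligand of the TNF family, fell from 13.4, 23.4 and 11.1 to 1.44, 1.97 and 0.90 CPM (−3.47 ± 0.50, adjusted p = 0.0041) and the chemokine receptor gene Cxcr6 from 27.5, 20.7 and 11.2 to 2.16, 2.92 and 1.04 CPM (−3.28 ± 0.50, adjusted p = 0.00448), beside Tnfrsf12a, the TWEAK receptor (338, 296 and 631 to 130, 140 and 108 CPM, −1.74 ± 0.26, adjusted p = 0.00422), and Ripk2, a kinase of innate signals (−1.49 ± 0.23, adjusted p = 0.00448). Noct, a circadian phosphatase gene, fell from 85.8, 120 and 116 to 28.4, 27.2 and 29.1 CPM (−1.93 ± 0.19, adjusted p = 0.000373), the glutathione genes Gss (−1.38 ± 0.18, adjusted p = 0.00182) and Gsto1 (−1.28 ± 0.18, adjusted p = 0.00387) fell as well, and Hmga2, the relative of Hmga1, was at 223, 179 and 178 CPM without and 61.9, 46.3 and 43.3 CPM with the fucoidan (−1.94 ± 0.30, adjusted p = 0.00542).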
